A study of Aethionema arabicum with 12 samples.

Results

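The response of Cypriot Aethionema arabicum seeds to light was measured as messenger RNA in 6 libraries, 3 from seeds kept in darkness and 3 from seeds under white light, out of the 12 libraries of the series. Aethionema arabicum is an annual of the crucifer family, and the accession from Cyprus (CYP) is known for germination that light inhibits. Imbibed CYP seeds were held for 23 h either in darkness (CYP dark) or under 100 µmol m-2 s-1 of white light (CYP light), and the same 2 treatments were given to the Turkish accession ES1020 (TUR), whose 6 libraries entered the fit and are used here only where a difference between the accessions was tested. No transgene, mutant or chemical is given for any group. The seeds frozen were intact ones that had not germinated, per the labels' protocols, so that each library averages embryo, endosperm and seed coat, and seeds that had already germinated were not sampled. The labels number the replicates 1 to 3 without saying whether they are separate seed batches, so p-values measure the spread between these samples, which may be technical. Genes were kept where at least 3 of the 12 libraries reached 1 CPM (counts scaled to a common library total), which left 15671 of 23594 gene models.

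A dry seed that takes up water resumes transcription and translation, and germination is completed when the embryonic root grows by cell expansion through the endosperm and seed coat. Gibberellin promotes that growth and abscisic acid (ABA) holds it back, and the balance of their synthesis and breakdown is set by phytochromes and other light receptors. Expansion needs enzymes and structural proteins that loosen and rebuild the cell wall, while seeds that stay arrested keep the storage, oil body and desiccation proteins of maturation. Gene names below are those of the Arabidopsis thaliana gene that the deposited table assigns to each model, and roles are those known from Arabidopsis. Where more than 1 model carries the same Arabidopsis gene, counting may have split reads between the copies, so the level of each copy is uncertain.

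Total counts were 7099578 to 10256583 in the dark libraries and 11859481 to 13953792 in the light libraries, so 3 reads stand for 0.215 to 0.423 CPM in 1 library. CYP dark replicate 3, the library with the lowest total, stood apart before any comparison with light. On the principal components of log2 CPM over the 6 CYP libraries, the first (61.1% of the variance) separated dark from light. Dark replicate 3 lay farthest to the dark side on it, at -44.05 against -29.13 and -30.29 for the other dark libraries. The second component (17.36%) placed dark replicate 3 at 33.56 against -20.85 and -20.54 for the other dark libraries. Among 12301 genes of at least 5 CPM, 31 were more than 2-fold above the other 2 dark libraries in replicate 3 and 103 more than 2-fold below, against at most 8 above and 4 below in any other CYP library. Short gene models were lower in it and long ones higher, with a median log2 difference from the other dark libraries of -0.07 in the shortest of 4 equal length classes and 0.06 in the longest. Light replicate 3 had a like lean against the other light libraries (-0.05 and 0.04), and dark replicate 1 the opposite one (0.07 and -0.04). Of the genes farthest from the other dark libraries, 2-cysteine peroxiredoxin B (AA119G00012), a chloroplast enzyme that removes peroxides, was at 182, 195 and 428 CPM in dark replicates 1 to 3 and at 175, 177 and 216 CPM in light. A peptidase of the S24/S26 family (AA15G00051) lay on the other side, at 11.6, 12.7 and 2.89 CPM in the dark and 9.55, 14.8 and 7.82 CPM in light. For both genes, the 2 other dark libraries lay within or close to the range of the light libraries. Ribosomal protein genes had a median log2 difference of -0.33 and histone genes of -0.34 in dark replicate 3 against the other dark libraries. No label says how this library differs, and the source of its difference was not tested.

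**Figure D1:**
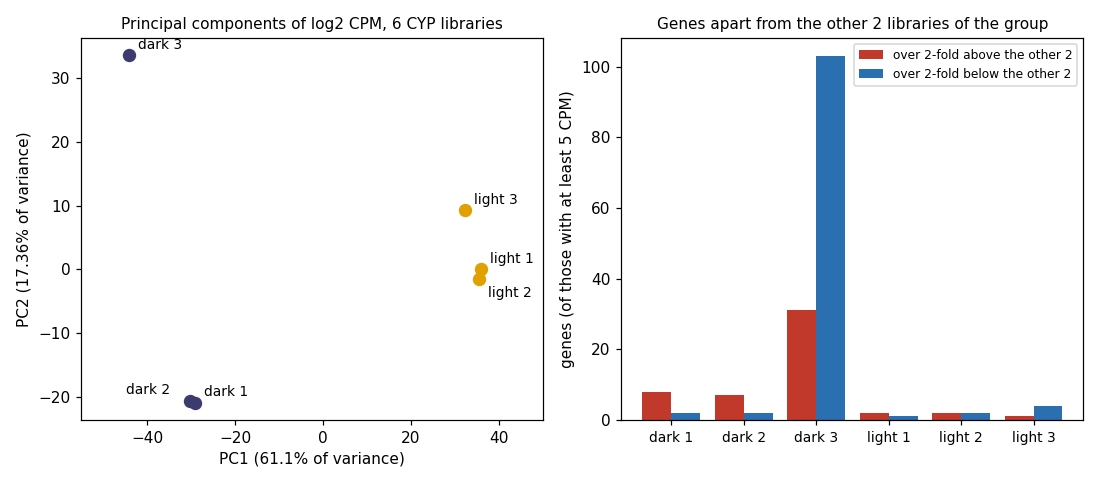
Left: the 6 CYP libraries on the first 2 principal components of log2 CPM (axes in component scores). Right: the number of genes in each CYP library that were more than 2-fold above (red) or below (blue) the other 2 libraries of its group. Dark replicate 3 is at -44.05 on the first component and 33.56 on the second, and has 31 genes above and 103 below.

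Light changed 3909 of the 15671 genes in CYP seeds, 24.9% of those tested, at an adjusted p under 0.05 (edgeR's quasi-likelihood test with Benjamini-Hochberg adjustment, used for every adjusted p below unless another tool is named). Of these, 1661 rose (10.6%) and 2248 fell (14.3%), and the median size of a called change was 0.61 on the log2 scale. Each family count below is to be read against these shares over all genes. The change was at least 2-fold for 965 genes (6.16%), of which 339 were rises (2.16%) and 626 were falls (3.99%). Without dark replicate 3, 1599 genes rose (10.2%) and 2032 fell (13%), of which 3151 were called in the same direction with all 6 libraries and 480 were not called there. Falls made up 57.5% of the calls, and between 50.7% and 59.1% under other scalings, filters and tests, so the surplus of falls depended on the processing. The libraries of the 2 groups did not overlap for 6007 genes (38.3%). A fall in a bulk library can come from fewer cells of a type or from less RNA in each cell, and these cannot be told apart here.

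The 15 largest rises and 15 largest falls were listed among called genes with a described function, a mean of at least 5 CPM and no overlap of the groups. The rises held a gibberellin 2-oxidase gene (AA18G00108) and several enzymes of flavonoid synthesis, and the falls held transcription factors, a transporter and wall proteins. A GATA zinc finger factor gene (AA8G00071, homolog of AT3G50870) had 5.69, 5.5 and 6.38 CPM in the dark and 0.318, 0 and 0.146 CPM in light, the deepest fall by that rule (log2 fold change -5.11, SE 0.50, adjusted p = 4.06e-07). An aspartyl protease gene (AA65G00026) fell from 5.49, 5.5 and 7.14 to 0.318, 0.599 and 0.293 CPM, and a gene for respiratory burst oxidase F (AA53G01329), which makes superoxide outside the cell, from 6.49, 5.38 and 5.93 to 0.637, 0.599 and 0.951 CPM. Their log2 fold changes were -3.88 (SE 0.35, adjusted p = 1.74e-07) and -2.99 (SE 0.29, adjusted p = 3.24e-07), and in all 3 genes every dark library lay above every light library. SKU5 similar 15 (AA30G00211), of a family of wall proteins related to multicopper oxidases, fell from 67.6, 67.4 and 64.3 to 7, 11.6 and 8.12 CPM (log2 fold change -2.90, SE 0.19, adjusted p = 3.17e-09).

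**Figure D2:**
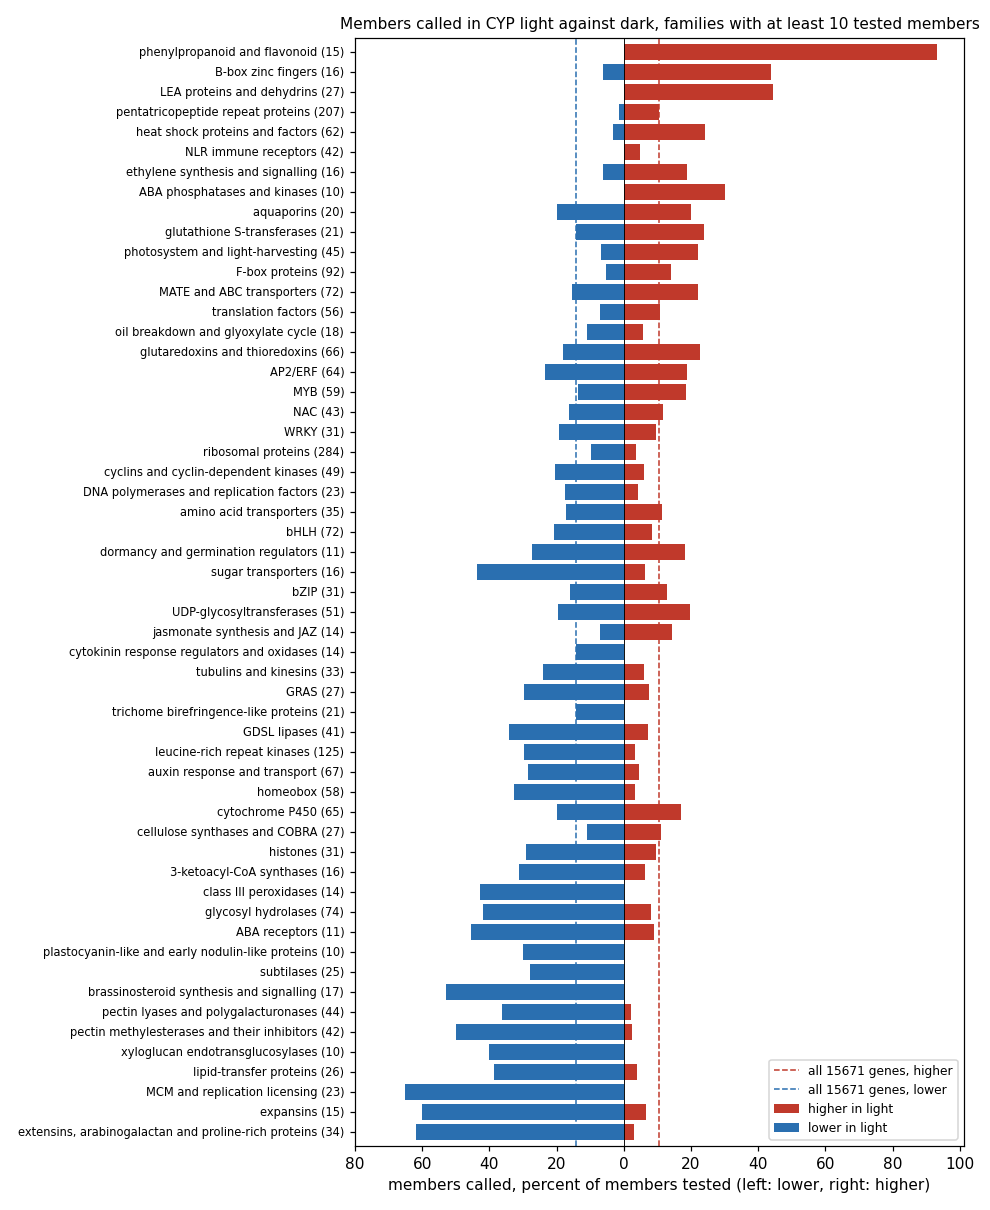
Share of tested members (percent, x axis) that were higher (red, right) or lower (blue, left) in CYP light, for each gene family or list with at least 10 tested members (number in brackets), ordered by median log2 fold change. Dashed lines mark the shares over all 15671 genes, 10.6% higher and 14.3% lower; wall families and replication licensing genes reach farthest to the left, flavonoid, B-box and LEA genes farthest to the right.

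Falls outnumbered rises among genes of the cell wall. Over 302 tested members of the wall families and lists, 118 fell (39.1%, against 14.3% of all genes) and 13 rose (4.3%, against 10.6%). Their median log2 fold change was -0.44 against -0.01 over all genes. Expansins, which loosen the wall during growth, fell in 9 of 15 tested models, and their summed level went from 786, 722 and 729 CPM in the dark to 382, 401 and 421 CPM in light. Expansin A2 (EXPA2, AA35G00022), an expansin known from the endosperm of germinating Arabidopsis seeds, stood at 90.5, 76.3 and 86.6 CPM in the dark and 9.39, 11 and 10.3 CPM in light. The 3 light libraries were all far below the 3 dark libraries (log2 fold change -3.04, SE 0.24, adjusted p = 3.04e-08). Expansin A14 (AA25G00163) fell from 18.8, 12.8 and 12.6 to 2.23, 2.57 and 1.9 CPM and expansin A9 (AA19G00314) from 128, 138 and 154 to 47.8, 56.3 and 54 CPM, by 2.74 (SE 0.22) and 1.41 (SE 0.10) on the log2 scale (adjusted p = 2.78e-08 and 8.16e-09). The 1 expansin that rose, an expansin B3 model (AA33G00348), was at 11.4, 10.4 and 8.51 CPM in the dark and 13.9, 13.6 and 14.8 CPM in light (log2 fold change 0.47, SE 0.17, adjusted p = 0.0482). That call was lost without dark replicate 3 (adjusted p = 0.133), and the count of expansins that rose was 0 in 9 of the 12 fits that left out 1 library.

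Xyloglucan endotransglucosylase/hydrolases, which cut and rejoin the xyloglucan that ties cellulose fibrils together, fell in 4 of 10 tested models and rose in 0. XTH16 (AA78G00036) went from 359, 333 and 271 to 149, 166 and 157 CPM and XTH4 (AA110G00001) from 49.6, 46.4 and 41.7 to 21.6, 22.8 and 21.4 CPM. The log2 fold changes were -1.03, SE 0.11, and -1.07, SE 0.11; adjusted p = 1.91e-06 and 1.36e-06. The changes were of about the same size, and in both genes the groups were well separated. Among the glycosyl hydrolases, 31 of 74 fell and 6 rose. Beta-xylosidase 1 (AA58G00011), which trims xylose and arabinose from wall polymers and is not counted in that family because its description does not name it, fell from 32.6, 26.4 and 22.2 CPM to 1.51, 1.28 and 1.1 CPM, the deepest fall of a wall gene named here (log2 fold change -4.39, SE 0.29, adjusted p = 2.27e-09). A glycosyl hydrolase gene of the family (AA44G00321, AT5G10560) moved the other way, from 146, 150 and 155 to 365, 371 and 376 CPM (log2 fold change 1.30, SE 0.09, adjusted p = 2.67e-09). Endo-mannanases, known to soften the mannan-rich walls of endosperm, fell in 2 of 4 tested models: MAN7 (AA8G00079) went from 278, 276 and 274 to 188, 208 and 179 CPM (log2 fold change -0.53, SE 0.09, adjusted p = 0.000287). The second was MAN5 (AA228G00014, log2 fold change -0.49, SE 0.12, adjusted p = 0.00756), and the count of falls was 1 without light replicate 1.

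Among pectin enzymes, too, falls outnumbered rises. Pectin lyases and polygalacturonases, which cut pectin chains, fell in 16 of 44 tested models and rose in 1, and pectin methylesterases and their inhibitors, which set how much pectin can be cross-linked, fell in 21 of 42 and rose in 1. The homolog of PMR6 (AA108G00006), a pectate lyase-like gene, was at 35.2, 43.3 and 48 CPM in the dark and 9.31, 11.9 and 8.99 CPM in light (log2 fold change -2.06, SE 0.16, adjusted p = 1.78e-08). A pectate lyase gene (AA134G00041) fell from 38.1, 37.6 and 31 to 10.4, 12.9 and 11.7 CPM, and a gene of the invertase and pectin methylesterase inhibitor superfamily (AA8G00179) from 33.9, 31.7 and 47.6 to 10.2, 11.6 and 10.2 CPM. In these genes, too, the lowest dark library was above the highest light library, with log2 fold changes of -1.61 (SE 0.16, adjusted p = 6.63e-07) and -1.81 (SE 0.16, adjusted p = 1.22e-07). The 1 rise among methylesterases was that of pectin methylesterase 31 (AA53G01094), from 33.9, 34 and 34.2 to 48.1, 54.2 and 53.6 CPM (log2 fold change 0.61, SE 0.10, adjusted p = 0.000129). The count of rises is small in both families and went from 1 to 2 when dark replicate 3, TUR light replicate 1 or TUR light replicate 2 was left out. It was also 2 for the lyases without TUR dark replicate 3, and for the methylesterases without dark replicate 2, light replicate 1 or TUR light replicate 3.

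Structural proteins of the wall also had more falls than rises. Extensins, arabinogalactan proteins and proline-rich proteins fell in 21 of 34 tested models, with a median log2 fold change of -0.88 against -0.82 for expansins (-0.69 and -0.89 without dark replicate 3), and their summed level dropped from 2962, 2888 and 3389.5 CPM to 1197, 1313 and 1206 CPM. An extensin-like protein gene (AA65G00256) made up a large share of that sum, at 874, 829 and 1081 CPM in the dark and 106, 117 and 107 CPM in light. Fasciclin-like arabinogalactan protein 10 (AA61G00462) fell from 15.1, 12.9 and 19.8 to 1.83, 3.51 and 2.56 CPM, and arabinogalactan protein 31 (AA297G00002) from 12.6, 11.2 and 17.9 to 2.55, 1.54 and 3.22 CPM. The groups were again apart in every library, with log2 fold changes of -2.59 (SE 0.22, adjusted p = 8.17e-08) and -2.47 (SE 0.23, adjusted p = 3.04e-07). The single model that rose (AA54G00330, Ole e 1 and extensin family) changed by 0.54 (SE 0.19, adjusted p = 0.0413), and its call was lost when dark replicate 1, 2 or 3, light replicate 1 or 2 or TUR dark replicate 2 was left out (0 rises) and with DESeq2 (adjusted p = 0.0669). Subtilases, secreted proteases that process wall proteins, fell in 7 of 25 tested models (28%, against 14.3% of all genes) and rose in 0. Among the falls was that of AA26G00148, from 28.8, 29.3 and 30.9 to 11.8, 9.16 and 10 CPM (log2 fold change -1.52, SE 0.13, adjusted p = 8.38e-08). Cellulose synthases and COBRA proteins did not lean to one side, with 3 rises and 3 falls in 27, and cellulose synthase-like B3 (AA32G00522) rose from 78.2, 73 and 80.9 to 251, 247 and 223 CPM (log2 fold change 1.63, SE 0.11, adjusted p = 3.71e-09).

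**Figure D3:**
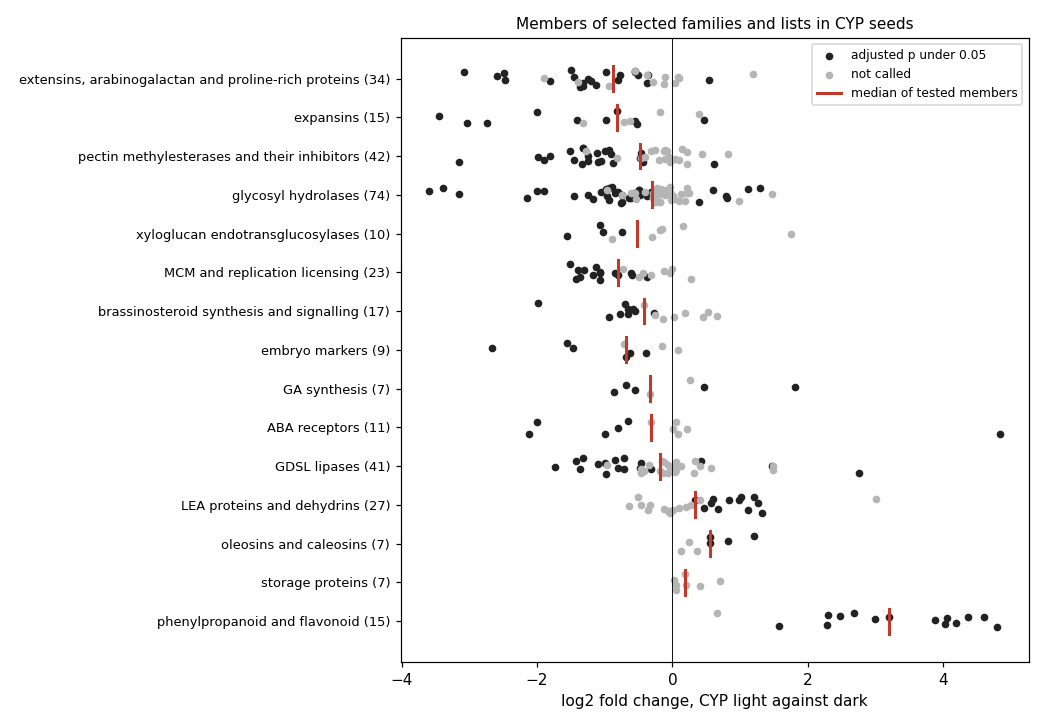
Log2 fold change (CYP light against dark, x axis) of each tested member of 15 families or lists (number in brackets): black points passed the test, grey points did not, and the red bar is the median of tested members. Extensin, expansin and replication licensing members lie mostly left of 0, LEA and oleosin members mostly right, and flavonoid members farthest right.

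Genes that license DNA replication fell, while DNA polymerases and replication factors, cyclins and histones were mixed. DNA polymerases and replication factors fell in 4 of 23 tested models (17.4%, against 14.3% of all genes) and rose in 1, with a median log2 fold change of -0.05. Their falls were 2 without dark replicate 2 or light replicate 1, and without dark replicate 3 there were 5 falls and 2 rises. In the licensing list, which holds the MCM helicase and the proteins that load it, 15 of 23 tested models fell and 0 rose, with a median log2 fold change of -0.80 and a summed level of 568, 579 and 612 CPM in the dark against 358, 350 and 376 CPM in light. CDT1A (AA32G00601), a loading factor of the helicase, was at 26.8, 26.9 and 23.6 CPM in the dark and 8.12, 8.65 and 10.3 CPM in light, and CDC6 (AA32G00731), its partner, at 7.39, 6.58 and 8.36 against 2.63, 2.65 and 3.07 CPM. Every light library was below every dark library, with log2 fold changes of -1.51 (SE 0.14, adjusted p = 1.76e-07) and -1.40 (SE 0.19, adjusted p = 2.13e-05). Cyclins and cyclin-dependent kinases fell in 10 of 49 (20.4%, against 14.3% of all genes) and rose in 3 (6.12%, against 10.6%). CDKB1;2 (AA139G00012), a kinase of the step into mitosis, fell from 17.6, 21.2 and 20.8 to 7.96, 7.11 and 6.95 CPM (log2 fold change -1.43, SE 0.13, adjusted p = 1.67e-07), whereas cyclin B1;1 (AA30G00259), which acts at the same step, rose from 14.3, 17.2 and 21.3 to 23, 24.1 and 25.4 CPM (log2 fold change 0.48, SE 0.13, adjusted p = 0.0122; 0.0808 without dark replicate 1). The cyclin counts rested on single libraries: the 10 falls became 5, 6 and 6 without dark replicate 2, light replicate 1 and light replicate 3, and the 3 rises became 0, 1 and 1 without dark replicate 1, dark replicate 2 and light replicate 2.

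Histone genes fell in 9 of 31 tested models (29%) and rose in 3 (9.68%). Without light replicate 3 there were 5 falls. Without dark replicate 3, in which the family was low, there were 13 falls and 2 rises. Histone H2A 6 (AA97G00036) fell from 127, 128 and 93.6 to 46, 49.2 and 48.9 CPM and an H3 gene (AA4G00264, AT5G65360) from 55.9, 55.2 and 51.7 to 25.6, 28.7 and 26.6 CPM. On the log2 scale the values were -1.28, SE 0.12, and -1.01, SE 0.10; adjusted p = 2.79e-07 and 5.39e-07. The 3 rises were all models of AT5G10980, an H3.3-type histone, such as AA44G00357 at 156, 147 and 158 CPM in the dark and 191, 205 and 204 CPM in light (log2 fold change 0.38, SE 0.09, adjusted p = 0.00594). Tubulins and kinesins fell in 8 of 33 (24.2%, against 14.3% of all genes) and rose in 2 (6.06%, against 10.6%), with 1 rise without dark replicate 2. Tubulin alpha-2 (AA26G00638), a building block of the microtubules that guide cellulose deposition, fell from 453, 435 and 537 to 172, 191 and 190 CPM (log2 fold change -1.37, SE 0.11, adjusted p = 3.47e-08).

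Markers of the embryo moved with these groups. Of 9 embryo markers, all tested, 6 fell and 0 rose, and their summed level was 252 to 313 CPM in the dark and 171 to 186 CPM in light. PDF1 (AA21G00071), which marks the outer cell layer of the embryo, fell from 50, 45.3 and 78.1 to 9.31, 9.42 and 8.56 CPM (log2 fold change -2.66, SE 0.21, adjusted p = 3.63e-08), and ATML1 (AA57G00375), a regulator of the same layer, was at 57.6 to 67.8 CPM in the dark and 64 to 68.4 CPM in light. Endosperm markers had 3 falls and 1 rise among 5 tested of 6 models, with summed levels that overlapped (594 to 724 CPM in the dark, 565 to 599 CPM in light); ZOU was at 0 in all 6 libraries, and the rise, of MFT, was lost when dark replicate 1 or 2 or any of the light libraries was left out (0 rises). Seed coat markers summed to 42.4 to 51.8 CPM in the dark and 56.2 to 59.1 CPM in light, with 2 rises and 1 fall among 4 tested of 7 models; TT12 was at 0 in all 6 libraries, and BAN and MUM2 were below 1 CPM in each. The seed identity markers, storage protein and oleosin genes, summed to 5916 to 8010.2 CPM in the dark and 9299 to 10059 CPM in light. Transcripts of seed storage tissue were thus abundant in every library. Of 4 tested members 2 rose, the oleosins OLEO1 and OLEO2, and the storage protein members were not called. EXPA2 and MAN7 of the wall lists are also endosperm markers here. The part of a change in tissue shares in the counts of wall, division and seed maturation genes was not tested.

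Genes of the plant surface fell in part. The 3-ketoacyl-CoA synthases, which extend fatty acids for waxes and cutin, fell in 5 of 16 tested models and rose in 1. KCS10 (AA32G01045), known from the cuticle of young epidermis, was at 153, 128 and 142 CPM in the dark and 58.5, 59 and 64.6 CPM in light (log2 fold change -1.21, SE 0.11, adjusted p = 1.4e-07), and KCS9 (AA123G00020) fell from 13, 12.4 and 10.6 to 5.01, 3.77 and 5.12 CPM (log2 fold change -1.38, SE 0.17, adjusted p = 7.39e-06). Lipid-transfer proteins, carriers of such lipids to the surface, fell in 10 of 26 tested models and rose in 1. AA31G00563 fell from 42.9, 46.4 and 33.3 to 13.6, 12.5 and 7.61 CPM, and AA32G00938 from 38.7, 35.1 and 35.9 to 12.3, 16.5 and 15.3 CPM. Expressed as log2 fold changes, these came to -1.88, SE 0.21, and -1.32, SE 0.12; adjusted p = 2.62e-06 and 2.07e-07. The count of lipid-transfer rises was 0 without dark replicate 1, dark replicate 3 or light replicate 1 and 2 without light replicate 2, TUR dark replicate 1, TUR dark replicate 2 or TUR light replicate 2.

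GDSL lipases, a family that includes cutin-building enzymes, had 14 falls (9 without light replicate 1) and 3 rises among 41. AA26G00339 fell from 112, 120 and 82.7 to 34.9, 43.4 and 39.2 CPM and AA6G00032 from 234, 234 and 239 to 88.7, 101 and 93.7 CPM. Their changes in log2 units were -1.43, SE 0.15, and -1.32, SE 0.12; adjusted p = 1.26e-06 and 1.84e-07. Against these, AA49G00019 rose from 14.8, 17.7 and 20.8 to 128, 114 and 117 CPM (log2 fold change 2.76, SE 0.11, adjusted p = 1.48e-12), so that members of this family moved far in both directions.

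**Figure D4:**
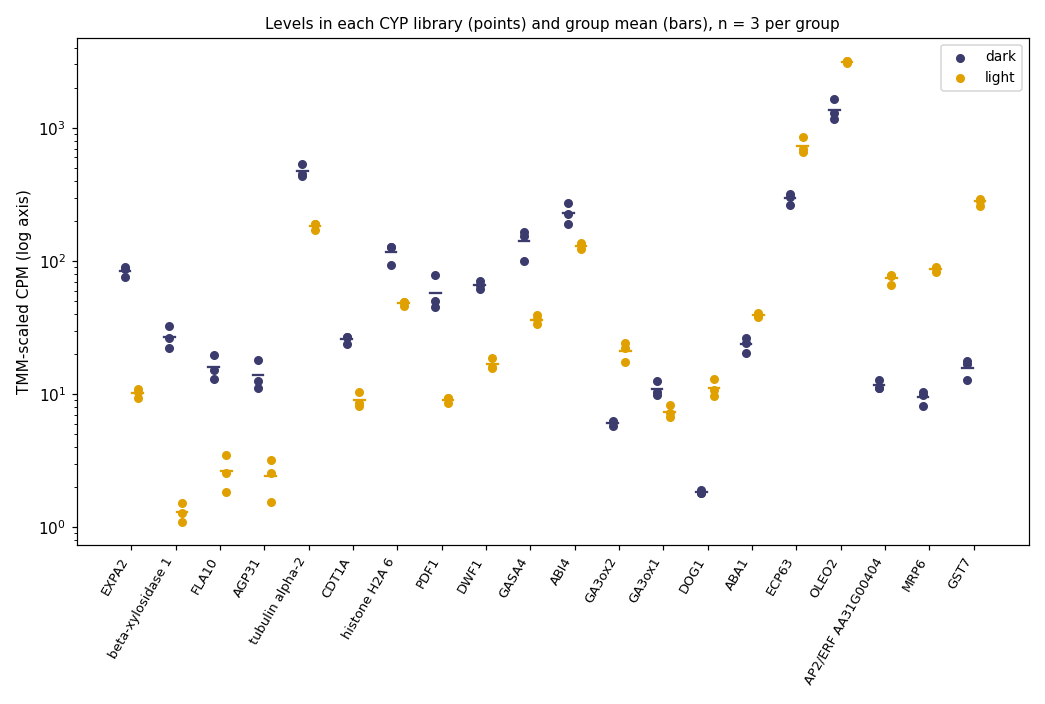
TMM-scaled CPM (log axis) of 20 genes named in the text in each of the 3 dark (blue) and 3 light (yellow) CYP libraries, with the group mean as a bar. From EXPA2 to ABI4 the dark libraries lie above the light ones, GA3ox2 and GA3ox1 lie on opposite sides, and from DOG1 to GST7 the light libraries lie above.

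Gibberellin genes changed at several steps and in opposite directions. For the last step of synthesis, GA3ox2 (AA31G00895) rose from 5.79, 6.22 and 6.23 to 22.4, 24.1 and 17.3 CPM (log2 fold change 1.81, SE 0.18, adjusted p = 5.6e-07). GA3ox1 (AA37G00176), the other 3-oxidase that makes active gibberellin, fell from 10.3, 9.81 and 12.6 to 6.69, 8.31 and 7.17 CPM (log2 fold change -0.55, SE 0.15, adjusted p = 0.00952; 0.0516 without light replicate 1). Per length and library total (RPKM), GA3ox1 was above GA3ox2 in the dark (6.64 against 3.28 RPKM on average) and below it in light (4.61 against 11.7 RPKM). This and later rankings per length rest on the deposited lengths, which are not stated to be of transcripts or of genes. A step earlier, GA20ox1 (AA1024G00001) fell from 34.6, 41.9 and 45 to 22.3, 22.7 and 21.5 CPM and GA20ox2 (AA55G00064) from 13.2, 15.3 and 19.5 to 9.71, 9.25 and 10.4 CPM. These shifts amounted to -0.86, SE 0.12, and -0.69, SE 0.18; adjusted p = 2.35e-05 and 0.00966 in log2 units. KAO2 (AA32G00528), further upstream, rose by 0.46 (SE 0.10, adjusted p = 0.00258), so the 7 tested synthesis genes had 2 rises and 3 falls. Of the gibberellin-inactivating 2-oxidases, 2 models of GA2ox2 were tested and went opposite ways: AA18G00108 had 5 reads in the 3 dark libraries together and 544 in light, and AA54G00411 fell from 38.3, 32.5 and 37.7 to 12.3, 10.8 and 8.7 CPM (log2 fold change -1.77, SE 0.18, adjusted p = 5.38e-07). The sum of the 2-oxidase models was lower in light, at 22.5 to 26.9 CPM against 32.5 to 38.9 CPM in the dark.

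Among the DELLA proteins, repressors that gibberellin removes, GAI (AA14G00090) fell from 51.2, 50.1 and 75.7 to 25.5, 25.3 and 31.4 CPM and RGA (AA53G00639) from 224, 209 and 298 to 152, 159 and 169 CPM. The fitted log2 changes were -1.10, SE 0.17, and -0.60, SE 0.12; adjusted p = 0.000134 and 0.00145. Dark replicate 3 was the highest library for both, and both remained called without it (-0.89 and -0.43 on the log2 scale). RGL2 (AA10G00264), the DELLA known to hold back germination in Arabidopsis, was at 602, 611 and 691 CPM in the dark and 602, 606 and 633 CPM in light, groups that overlap. Per length RGL2 had the highest level of the 3 in both groups (363 RPKM in the dark and 360 in light, against 124 and 83.8 for RGA and 32.7 and 15.6 for GAI). The gibberellin receptor gene GID1A (AA10G00111) rose from 60.6, 45.8 and 62 to 78.2, 67.4 and 72.5 CPM (log2 fold change 0.37, SE 0.11, adjusted p = 0.0198), a call that was lost without dark replicate 2 or light replicate 1 (0 rises among the 6 perception genes). The gibberellin-responsive peptide genes also split, with GASA4 (AA40G00565) falling from 166, 155 and 100 to 33.6, 39.1 and 36.4 CPM and GASA3 (AA9G00183) rising from 50.5, 59.6 and 61.3 to 84.9, 99.7 and 87.7 CPM. The log2 fold changes were -1.95, SE 0.17, and 0.67, SE 0.14; adjusted p = 1.1e-07 and 0.00182.

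Genes of ABA synthesis and of ABA breakdown both rose in part. Of 6 tested synthesis models, 3 rose and 1 fell (2 without dark replicate 3). ABA1 (AA8G00025), the zeaxanthin epoxidase that starts the branch, rose from 24.1, 26.6 and 20.2 to 41, 37.8 and 38.9 CPM (log2 fold change 0.72, SE 0.12, adjusted p = 0.000189), and ABA3 (AA37G00095), needed for its last step, from 11.6, 10.9 and 11.1 to 15.9, 17 and 16.2 CPM (log2 fold change 0.55, SE 0.13, adjusted p = 0.00386). The cleavage enzyme NCED9 (AA31G00716) rose from 2.4, 1.44 and 1.82 to 4.62, 3 and 4.75 CPM (log2 fold change 1.11, SE 0.26, adjusted p = 0.00415). Its relative NCED6 fell, and the other NCED models were below 1 CPM in every CYP library. Of the hydroxylases that inactivate ABA, 1 model of CYP707A3 fell (AA6G00060, 18.9, 17.7 and 16.9 to 9.15, 9.5 and 9.43 CPM, log2 fold change -0.93, SE 0.11, adjusted p = 4.63e-06) while another of the same Arabidopsis gene rose (AA57G00196, 6.89, 4.67 and 3.65 to 10.9, 9.59 and 11 CPM, log2 fold change 1.01, SE 0.22, adjusted p = 0.00211). With CYP707A2, which rose, the 3 tested hydroxylase models summed to 51.7 to 61.5 CPM in the dark and 102 to 111 CPM in light.

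ABA receptors fell more often than they rose, with 5 falls and 1 rise among 11 tested models. PYL4 (AA805G00002) fell from 28.7, 35.7 and 38.5 to 8.2, 10 and 7.46 CPM, and PYR1 (AA57G00057) from 176, 165 and 165 to 95, 113 and 114 CPM. On the log2 scale the values were -2.0, SE 0.15, and -0.65, SE 0.10; adjusted p = 1.63e-08 and 6.46e-05. The rise was that of PYL11, and log2 fold changes in the receptor list ran from -2.12 to 4.84. The summed level of all receptor models was higher in light (324 to 332 CPM) than in the dark (300 to 308 CPM). The PP2C phosphatases that the receptors inhibit rose in 3 of 10 tested phosphatase and kinase models, with AHG3 (AA52G00006) at 45.9, 41.6 and 42.4 CPM in the dark and 72.2, 64.1 and 64.9 CPM in light (log2 fold change 0.63, SE 0.10, adjusted p = 0.000121). ABI2 (AA44G00681) and HAI3 (AA32G00752) were the others, and HAI3 was not called without dark replicate 2 or 3 or light replicate 1 or 2 (adjusted p = 0.0508, 0.0905, 0.0512 and 0.103). Of the transcription factors of ABA, ABI4 (AA29G00257) fell from 225, 190 and 272 to 132, 123 and 136 CPM (log2 fold change -0.81, SE 0.14, adjusted p = 0.00037) and ABF1 (AA2G00098) rose from 13.4, 10.1 and 12.5 to 18.1, 18.3 and 19.2 CPM (log2 fold change 0.63, SE 0.16, adjusted p = 0.00622). ABI3 (AA109G00007) and ABI5 (AA60G00170), the central factors of seed ABA response, were at 118 to 123 and 283 to 353 CPM in the dark and at 130 to 141 and 321 to 356 CPM in light, and neither passed the test (adjusted p = 0.237 and 0.576).

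Dormancy regulators had 2 rises and 3 falls among 11 tested models. DOG1 (AA6G00020), the main dormancy gene known from Arabidopsis, was at 1.8, 1.91 and 1.82 CPM in the dark and 13.1, 9.76 and 10.7 CPM in light (log2 fold change 2.59, SE 0.35, adjusted p = 2.09e-05). MFT (AA39G00114), a seed regulator that responds to ABA and gibberellin, was at 179, 167 and 256 CPM in the dark and 323, 303 and 297 CPM in light (log2 fold change 0.62, SE 0.20, adjusted p = 0.0283), with dark replicate 3 nearest to the light libraries. The MFT call was lost when dark replicate 1 or 2 or light replicate 1, 2 or 3 was left out (adjusted p = 0.0919, 0.112, 0.0831, 0.0615 and 0.0552), and the count of rises was then 1 except without dark replicate 2. It was also lost with DESeq2 (adjusted p = 0.0886). SPATULA (SPT, AA30G00231), a bHLH repressor of germination in the light, fell from 8.49, 6.94 and 8.36 to 2.15, 2.48 and 1.68 CPM, and BME3 (AA216G00002), a GATA factor that promotes germination, from 34.1, 27.5 and 32.8 to 20.1, 19.6 and 19.2 CPM. Expressed as log2 fold changes, these came to -1.92, SE 0.25, and -0.68, SE 0.12; adjusted p = 1.85e-05 and 0.000347. The fall of DAG2 (AA21G00391) had an adjusted p of 0.0453, and in the 5 fits that left out dark replicate 2 or 3 or a light library it was not called (adjusted p = 0.0596 to 0.273). It was also not called with library totals alone (adjusted p = 0.052), with limma on log2(RPKM + 1) or log2(RPKM + 5) (0.0527 and 0.0607) or with only the 6 CYP libraries in the fit (0.104).

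Among the other growth hormones, falls outnumbered rises for brassinosteroid and auxin genes. Of 17 brassinosteroid synthesis and signalling genes tested, 9 fell and 0 rose, with a median log2 fold change of -0.42; 1 rose without dark replicate 2, light replicate 3 or TUR light replicate 1. DWF1 (AA26G00651), a synthesis enzyme needed for cell elongation, fell from 62, 71.2 and 66.3 to 15.9, 15.7 and 18.7 CPM (log2 fold change -1.98, SE 0.15, adjusted p = 1.58e-08). BES1 (AA39G00217), a transcription factor of the pathway, fell from 57.6, 55.8 and 77.8 to 39.2, 39 and 39.3 CPM, and BAS1 (AA32G00989), which inactivates brassinosteroids, from 9.89, 9.81 and 8.82 to 6.29, 6.08 and 5.78 CPM. Their changes in log2 units were -0.70, SE 0.14, and -0.66, SE 0.17; adjusted p = 0.00112 and 0.00818. Thus genes that make, read and remove the hormone were all among the falls. Auxin response and transport genes fell in 19 of 67 (28.4%, against 14.3% of all genes) and rose in 3 (4.48%, against 10.6%). There was 1 rise without dark replicate 1 or light replicate 1. The auxin import carriers LAX2 (AA46G00024) and LAX1 (AA19G00354) fell, from 129, 137 and 145 to 50, 51.6 and 51.1 CPM and from 6.69, 11.5 and 8.21 to 3.02, 2.74 and 2.85 CPM. These shifts amounted to -1.43, SE 0.12, and -1.60, SE 0.21; adjusted p = 9.74e-08 and 1.64e-05 in log2 units. In ethylene signalling, the receptor gene ERS2 (AA19G00119) and an EIN3-family factor gene (AA4G00240) rose, the latter from 34, 38.3 and 30.3 to 105, 91.8 and 88.5 CPM. The fitted log2 changes were 1.98, SE 0.29, and 1.47, SE 0.12; adjusted p = 4.58e-05 and 2.65e-08.

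Among genes of seed maturation, some LEA and oil body protein genes rose and 0 storage protein genes passed the test. LEA proteins and dehydrins, which protect cells in the dry state, rose in 12 of 27 tested models and fell in 0 (2 without dark replicate 3), and their summed level went from 6091, 5886 and 5495 CPM to 9599, 10611 and 9120.4 CPM. The embryonic cell protein ECP63 (AA60G00129) rose from 320, 304 and 264 to 699, 856 and 659 CPM, and a LEA domain protein (AA21G00047) from 417, 407 and 398 to 935, 1066 and 929 CPM. The log2 fold changes were 1.32, SE 0.13, and 1.26, SE 0.13; adjusted p = 4.31e-07 and 1.2e-06. No light library reached down to the dark range in either gene. Oleosins and caleosins, the coat proteins of oil bodies, rose in 4 of 7 tested models (2 without light replicate 2) and fell in 0. OLEO2 (AA87G00124) was at 1657, 1293 and 1177 CPM in the dark and 3196, 3195 and 3064 CPM in light, and OLEO1 (AA131G00012) at 1152, 1172 and 1609.6 against 2224, 2422 and 2309 CPM. On the log2 scale the values were 1.20, SE 0.19, and 0.82, SE 0.19; adjusted p = 0.000101 and 0.00366. Of the storage protein genes, 0 of 7 tested models passed edgeR's test, 1 had an unadjusted p under 0.05, and DESeq2 and limma also called 0. With only the 6 CYP libraries in the fit 2 rose, and without light replicate 3 1 rose. Their sums overlapped, at 6269 to 8359 CPM in the dark and 7858 to 8656 CPM in light. In the breakdown of stored oil, 15 of 18 tested genes were not called. Isocitrate lyase (ICL, AA26G00814), which lets seedlings turn fat into sugar, fell from 9528, 8539 and 9148 to 6332, 5597 and 6546 CPM, and PCK1 (AA30G00293), which takes the carbon on to sugar, from 3569, 3552 and 4368 to 2444, 2259.7 and 2829 CPM. Expressed as log2 fold changes, these came to -0.56, SE 0.11, and -0.61, SE 0.12; adjusted p = 0.000733 and 0.00115. A tonoplast aquaporin of seeds (AA31G00626, AT1G73190) rose from 398, 402 and 451 to 710, 855 and 712 CPM (log2 fold change 0.86, SE 0.19, adjusted p = 0.00281).

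Flavonoid synthesis had the highest median log2 fold change of the lists, 3.20, with rises in 14 of 15 tested members of its list. Genes for enzymes that modify flavonoids rose as well. A chalcone isomerase-like gene (AA35G00019) rose from 7.99, 5.15 and 7.14 to 228, 214 and 217 CPM (log2 fold change 5.02, SE 0.13, adjusted p = 1.24e-14). Downstream, an acyltransferase gene (AA19G00153, AT1G03940) rose from 28.3, 21.4 and 30.6 to 456, 469 and 504 CPM, and the flavonoid 3-O-glucosyltransferase AA11G00065, which adds a sugar, from 21.6, 14.2 and 19.5 to 350, 287 and 335 CPM. These changes were 4.16 (SE 0.12, adjusted p = 2.67e-14) and 4.13 (SE 0.13, adjusted p = 7.49e-14) on the log2 scale, and no dark library came near the light range. Glutathione S-transferase and ABC transporter genes also rose. Of those given here only TT19 is in the flavonoid list, and whether the others act on flavonoids was not tested. TT19 (AA40G00386), a glutathione S-transferase that carries anthocyanins to the vacuole, rose from 23.5, 17.8 and 15.7 to 274, 291 and 285 CPM, and glutathione S-transferase 7 (AA7G00034) from 17.6, 16.9 and 12.8 to 261, 295 and 285 CPM. Their changes in log2 units were 3.88, SE 0.13, and 4.14, SE 0.16; adjusted p = 8.74e-14 and 4.24e-13. The ABC transporters MRP6 (AA26G00775) and MRP2 (AA18G00120) rose from 9.89, 10.4 and 8.21 to 89.8, 82.4 and 88.9 CPM and from 54.8, 49.3 and 47.9 to 193, 160 and 192 CPM. These shifts amounted to 3.18, SE 0.13, and 1.84, SE 0.11; adjusted p = 1.14e-12 and 3.66e-10 in log2 units.

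Both an activator and a repressor of the pathway rose. The bHLH activator EGL3 (AA21G00569) went from 1.6, 1.44 and 2.43 to 34.9, 37.1 and 32.5 CPM, and the repressor MYBL2 (AA38G00006) from 0.499, 0.239 and 0.608 to 5.33, 5.74 and 5.7 CPM. The fitted log2 changes were 4.29, SE 0.18, and 3.63, SE 0.32; adjusted p = 2.5e-12 and 1.19e-07. TTG2 (AA60G00054), a WRKY factor of seed coat and pigment, rose from 5.69, 8.02 and 4.86 to 18.9, 19.3 and 17 CPM (log2 fold change 1.56, SE 0.16, adjusted p = 1.11e-06), and is one of the 2 seed coat markers that rose.

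Over the families of metabolism, 61 of 234 tested members fell (26.1%, against 14.3% of all genes) and 31 rose (13.2%, against 10.6%). The rises include TT19 and glutathione S-transferase 7, given above with the flavonoid genes. Cytochrome P450 genes rose in 11 of 65 tested models (16.9%, against 10.6% of all genes) and fell in 13 (20%, against 14.3%). Their log2 fold changes ran from -2.68 to 4.61. Their summed level was 1294 to 1339 CPM in the dark and 1844 to 1902 CPM in light. CYP79B2 (AA30G00344) and CYP83B1 (AA428G00003), successive cytochrome P450 enzymes that turn tryptophan towards indole glucosinolates, fell from 5.79, 6.58 and 6.08 to 0.557, 1.46 and 0.878 CPM and from 59.3, 60.1 and 66.4 to 15.8, 24.2 and 17.6 CPM. The log2 fold changes were -2.68, SE 0.27, and -1.69, SE 0.13; adjusted p = 5.94e-07 and 3.28e-08. Class III peroxidases, secreted enzymes that can stiffen walls, fell in 6 of 14 tested models and rose in 0. One of them, AA57G00392, was at 263, 276 and 401 CPM in the dark and 131, 142 and 151 CPM in light (log2 fold change -1.15, SE 0.15, adjusted p = 1.06e-05). Sugar transporters fell in 7 of 16, among them the importer STP1 (AA65G00183), from 15.5, 12.4 and 12.8 to 4.46, 4.62 and 3.8 CPM (log2 fold change -1.67, SE 0.17, adjusted p = 5.39e-07). Aquaporins had 4 rises (2 without dark replicate 2) and 4 falls in 20, with a plasma membrane aquaporin (AA60G00062, AT2G37170) going from 3, 3.35 and 3.95 to 13.1, 16.5 and 13.8 CPM and another (PIP3, AA33G00001) from 26.2, 20.9 and 19.8 to 10.3, 9.25 and 7.31 CPM. On the log2 scale the values were 2.09, SE 0.16, and -1.33, SE 0.16; adjusted p = 1.67e-08 and 6.28e-06.

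Light regulators outside the photoreceptors included the B-box family, zinc finger proteins that bind HY5 and COP1. Of 16 tested B-box models, 7 rose and 1 fell. B-box 32 (AA26G00766) rose from 1.4, 0.718 and 1.37 to 6.61, 6.68 and 5.85 CPM and AA114G00006 (AT1G06040) from 53.3, 51.8 and 60.5 to 275, 312 and 276 CPM, while AA32G01107 (AT4G27310) fell from 13.4, 12 and 7.9 to 5.33, 4.28 and 3.73 CPM. The log2 fold changes were 2.44 (SE 0.25, adjusted p = 8.4e-07), 2.38 (SE 0.11, adjusted p = 8.44e-12) and -1.34 (SE 0.21, adjusted p = 0.000111). A photolyase gene (AA26G00273), for repair of UV damage in DNA, rose from 2.7, 2.75 and 2.13 to 7.8, 8.56 and 8.34 CPM (log2 fold change 1.68, SE 0.19, adjusted p = 2.55e-06). Of the PIF and shade list, 5 of 7 tested members fell and 0 rose, among them PAR1 (AA21G00074), from 21.1, 16.6 and 11.4 to 5.97, 5.22 and 4.24 CPM (log2 fold change -1.70, SE 0.21, adjusted p = 6.68e-06).

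Transcription factor families held both rises and falls. Homeobox factors fell in 19 of 58 and rose in 2 (1 without dark replicate 1 or 2 or light replicate 1 or 2). WOX9 (AA43G00008, AT2G33880), a factor of embryo and meristem growth, fell from 64.4, 73.7 and 76.8 to 29.3, 31.3 and 32.8 CPM, and HAT2 (AA251G00004), an auxin- and shade-linked factor, from 21.9, 21.4 and 19.2 to 8.52, 6.94 and 8.7 CPM. Expressed as log2 fold changes, these came to -1.20, SE 0.11, and -1.37, SE 0.15; adjusted p = 1.67e-07 and 1.6e-06. AP2/ERF factors moved both ways, with 12 rises and 15 falls in 64 (18.8% and 23.4%, against 10.6% and 14.3% of all genes). The model AA31G00404 (AT1G75490, of the DREB2 branch known from drought response) rose from 11.1, 12.7 and 11.2 to 77.3, 78.6 and 66.3 CPM, and AA31G00259 (AT1G77200) fell from 6.49, 5.03 and 5.93 to 0.478, 0.257 and 0.439 CPM. Their changes in log2 units were 2.66, SE 0.25, and -3.85, SE 0.34; adjusted p = 2.96e-07 and 1.35e-07. The stress-linked factors NAC032 (AA31G00236) and ATAF1 (AA1G00095) rose from 15.2, 12.9 and 10.8 to 55.6, 55.4 and 45.3 CPM and from 50.2, 46.5 and 41.3 to 103, 89.3 and 89.5 CPM. These shifts amounted to 1.99, SE 0.23, and 1.03, SE 0.14; adjusted p = 4.4e-06 and 2.13e-05 in log2 units. NAC factors as a family had 5 rises and 7 falls in 43 (11.6% and 16.3%, close to the 10.6% and 14.3% of all genes); the rises were 3 without dark replicate 2, and the falls 3 and 4 without light replicates 2 and 3.

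Leucine-rich repeat kinases, the largest receptor family of plants, fell in 37 of 125 tested models and rose in 4 (9 without dark replicate 3). AA30G00136 (AT4G36180) fell from 32.9, 36.4 and 33.3 to 16.1, 14 and 16.7 CPM and AA65G00143 (AT1G10850) from 16.7, 16 and 14.7 to 6.29, 8.99 and 5.56 CPM. The fitted log2 changes were -1.13, SE 0.12, and -1.20, SE 0.15; adjusted p = 1.89e-06 and 1.32e-05. Heat shock proteins and factors rose in 15 of 62 and fell in 2; the rises were 8 and the falls 1 without dark replicate 2. An HSP70 gene (AA92G00001) was at 86.9, 66.9 and 64.8 CPM in the dark and 130, 152 and 147 CPM in light (log2 fold change 0.97, SE 0.12, adjusted p = 6.65e-06). The summed level of the family overlapped between the groups, with dark replicate 3 the highest of the 6 libraries at 13102 CPM.

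Genes of the machinery of gene expression had few calls of 2-fold or more. Ribosomal protein genes fell in 28 of 284 tested models (9.86%, below the 14.3% of all genes) and rose in 10 (3.52%, below the 10.6%). Their summed level overlapped, at 101197 to 116992 CPM in the dark and 100953 to 106936 CPM in light. These counts depended on dark replicate 3, in which the family was low: without it 50 fell and 6 rose. The share of falls was then above, not below, that of all genes in the same fit (13%). Without light replicate 1 there were 15 falls, and without light replicate 2 there were 3 rises. Pentatricopeptide repeat proteins, which process RNA in mitochondria and plastids, rose in 22 of 207 (10.6%, equal to the share of all genes). They fell in 3 (1.45%, below the 14.3% of all genes), with a median log2 fold change of 0.15. The falls were 5, 5 and 1 without dark replicate 1, dark replicate 2 and light replicate 2.

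The light response of CYP seeds was then set beside that of TUR seeds by testing the difference of the 2 responses in the same fit. The difference was called for 351 genes, 2.24% of those tested, with 64 positive (0.408%, a higher log2 fold change in CYP) and 287 negative (1.83%). The total was 164, 179 and 219 without CYP light replicates 1, 2 and 3, 195 and 196 without TUR dark replicates 2 and 3, and 221 and 198 without TUR light replicates 1 and 2. Without CYP dark replicate 3 it rose to 451, with 112 positive and 339 negative. With limma on log2(RPKM + 5) 104 differences were positive and 181 negative. Of the 287, 229 fell in CYP, 29 rose and 29 were not called; of the 64, 42 rose in CYP, 0 fell and 22 were not called. Wall families held 26 negative and 1 positive difference among 302 members, with a median log2 fold change of -0.44 in CYP and -0.25 in TUR. Replication licensing held 7 negative among 23, with medians of -0.80 in CYP and -0.32 in TUR. GDSL lipases held 7 negative among 41. The flavonoid list held 6 negative among 15, with a median log2 fold change of 3.20 in CYP and 3.75 in TUR. Seed reserves held 5 positive and 0 negative among 59, of which 4 were LEA genes.

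Several wall and surface genes fell in CYP and had a log2 fold change between -0.33 and 0.41 in TUR. Proline-rich protein 4 (AA20G00061) was at 11.7, 8.5 and 19.6 CPM in CYP dark and 2.47, 2.91 and 1.61 CPM in CYP light, against 17.4 ± 4.9 and 22.4 ± 3.8 CPM (SD, n = 3) in TUR dark and light. Its fall in CYP (log2 fold change -2.49, SE 0.32) and its value in TUR (0.36, SE 0.23) differed by -2.85 (SE 0.40, adjusted p = 0.000596). For KCS10 (AA32G01045) the TUR values were 178 ± 9.96 and 236 ± 31.2 CPM (SD, n = 3; log2 fold change 0.41, SE 0.10), and the difference of the responses was -1.62 (SE 0.15, adjusted p = 1.83e-05). The pectate lyase AA134G00041, the methylesterase inhibitor family gene AA8G00179 and the subtilase AA26G00148 differed by -1.46, -1.48 and -1.34 (adjusted p = 0.000969, 0.000702 and 0.000286), each with a TUR log2 fold change between -0.33 and -0.15. A bZIP factor gene (AA61G00245, AT3G58120) fell in CYP from 6.59, 5.62 and 7.14 to 1.35, 1.88 and 1.02 CPM and was at 28.4 ± 2.88 and 29 ± 4.28 CPM (SD, n = 3) in TUR (difference -2.21, SE 0.27, adjusted p = 0.000187).

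Of 193 tested members of the hormone lists, the difference was negative for 10 and positive for 1, GA3ox2. Over all genes the shares were 1.83% and 0.408%. The GA3ox2 rise was larger in CYP than in TUR, where levels were 5.92 ± 1.44 and 9.56 ± 1.04 CPM (SD, n = 3; difference 1.12, SE 0.26, adjusted p = 0.0285). That call held in 5 of the 12 fits that left out 1 library (adjusted p = 0.0126 to 0.0827). GA3ox1, which fell in CYP, was at 32.3 ± 3.95 and 42.4 ± 0.81 CPM (SD, n = 3) in TUR (difference -0.94, SE 0.18, adjusted p = 0.00912; 0.052 without light replicate 1). The GA2ox2 model AA54G00411, which fell in CYP, was much lower in TUR, at 2.23 ± 0.938 and 2.36 ± 0.747 CPM in the dark and in light (SD, n = 3; difference -1.95, SE 0.34, adjusted p = 0.00418). BME3 and PYL4 differed by -0.89 (SE 0.16, adjusted p = 0.00491) and -1.24 (SE 0.19, adjusted p = 0.00145). Among the positive differences outside the hormone lists, AA31G00404 (AP2/ERF) rose more in CYP than in TUR. Its TUR levels were 25.7 ± 7.47 and 43.4 ± 18.1 CPM (SD, n = 3), and the difference was 1.90 (SE 0.34, adjusted p = 0.00468). Homocysteine S-methyltransferase 3 (AA17G00074), which makes methionine, rose in CYP from 36.7, 33 and 27.8 to 70.9, 67.6 and 68.7 CPM and was at 19.6 ± 1.14 and 17.7 ± 4.35 CPM (SD, n = 3) in TUR (difference 1.20, SE 0.19, adjusted p = 0.00194). The LEA genes ECP63 and AA21G00047 differed by 0.91 (SE 0.18, adjusted p = 0.00969) and 0.88 (adjusted p = 0.0171; 0.0572 without light replicate 2), with TUR log2 fold changes of 0.41 and 0.38. For DOG1, EXPA2, GAI and the oleosins OLEO1 and OLEO2 the difference was not called (adjusted p = 0.354, 0.225, 0.468, 0.609 and 0.471), which does not show that the responses were alike.

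**Figure D5:**
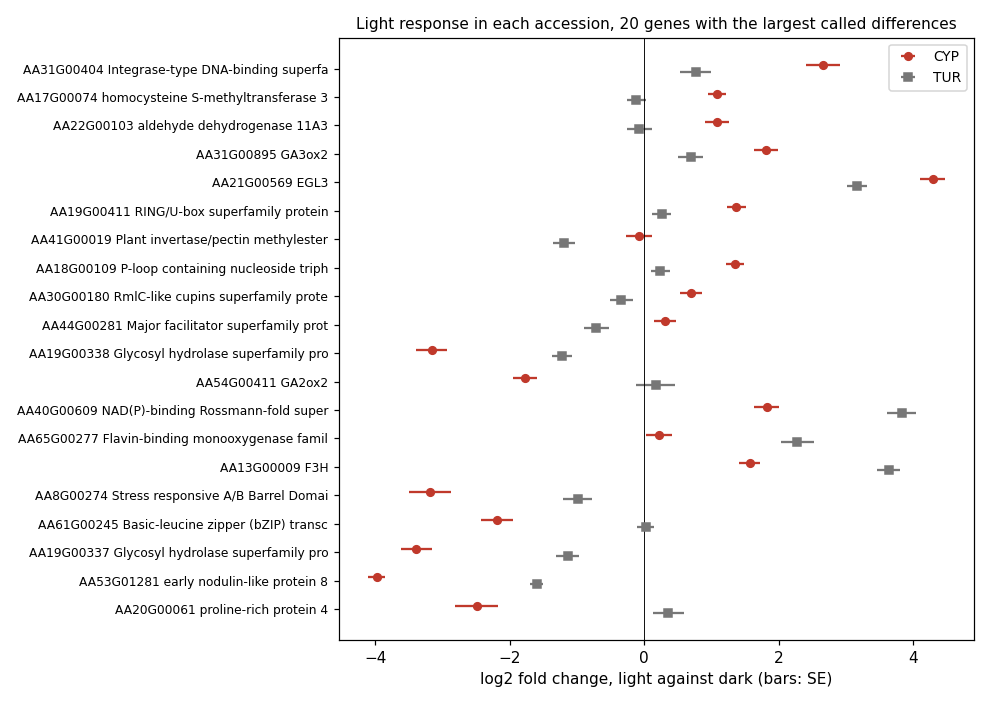
Log2 fold change of light against dark (x axis, bars: SE) in CYP (red circles) and TUR (grey squares) for the 10 largest positive and 10 largest negative called differences among genes with a known function. Proline-rich protein 4, the bZIP gene AA61G00245 and the GA2ox2 model AA54G00411 lie at -2.49, -2.19 and -1.77 in CYP and at 0.36, 0.02 and 0.17 in TUR.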

How the data were processed

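Messenger RNA of imbibed seeds was sequenced in 12 libraries, 3 for each accession and treatment; poly(A) RNA was selected with a Lexogen SENSE kit, per the labels' protocols. Tools credited to the submitters' processing notes are HTSeq 0.6.1, Bowtie2 2.2.3, bcl2fastq 2.17.1 and Trimmomatic, with TAIR10 as the build named. Neither the genome release nor the counting settings nor the use of strand is given in the sources used here, so reads of overlapping or antisense genes and of near-identical copies cannot be separated. The deposited table holds raw counts per gene model, RPKM values by the authors, gene lengths (in bases) and the nearest Arabidopsis gene, per the file headers. The deposited RPKM of CYP equals the count divided by length and column total; that of TUR does not follow from its counts and was not used.

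From the counts, genes with at least 1 CPM in at least 3 libraries were kept, libraries were scaled by TMM, and 4 group means were fitted over all 12 libraries with edgeR 4.0.16 in R 4.3.3 (quasi-likelihood test, Benjamini-Hochberg over 15671 genes, called under 0.05). Levels are TMM-scaled CPM, and SE is that of the log2 fold change. RPKM levels between genes were computed from counts and lengths. Whether the lengths are of transcripts or of genes is not stated, which limits any ranking between genes. The script was tested on simulated data. Alternatives used DESeq2 1.42.0, limma 3.58.1 on log2(RPKM + 1) and log2(RPKM + 5), other scalings and filters, fewer libraries and a replicate block. Total counts of 7099578 to 13953792 per CYP library put 3 reads at 0.215 to 0.423 CPM, a floor that covers counting error only.

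Genes were named by rule: the 15 largest called rises and falls with a known function, a mean of at least 5 CPM and no overlap of groups; up to 4 such genes per direction in each of 72 families and lists; all gibberellin, ABA and dormancy genes; the 10 largest differences each way between accessions; and the 10 genes farthest above and below in dark replicate 3. Families were taken from the table's descriptions and Arabidopsis genes. Members and lists were chosen with earlier results of these data known, and single examples were picked from the named genes after their values were seen. Of the tested models, 14955 had an Arabidopsis gene and 13493 a description.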

Additional observations from a re-analysis of the deposited data

Results flagged for a closer look

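Of the genes named above, 43 had a light response that differed between the accessions by the test of the difference itself (CYP minus TUR, log2, edgeR's quasi-likelihood test, adjusted p under 0.05), and 25 of them kept that call in each of the 12 fits that left out 1 library. The naming rule itself took in the 10 largest called differences each way, and examples were picked after their values were seen. Neither the 43 nor the groups of genes below can therefore be read as shares. Over all genes the difference was called for 2.24%. Groups of 3 libraries were too small to test for a library far from the others.

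Among those 25, wall and surface genes differed by -2.85 (proline-rich protein 4, AA20G00061), -1.74 (fasciclin-like arabinogalactan protein 10, AA61G00462), -1.62 (KCS10, AA32G01045), -1.58 (KCS9, AA123G00020), -1.50 and -1.17 (the GDSL lipases AA26G00339 and AA6G00032), -1.48 (AA8G00179), -1.47 (SKU5 similar 15, AA30G00211), -1.46 (pectate lyase AA134G00041), -1.39 (extensin-like AA65G00256), -1.34 (subtilase AA26G00148) and -0.80 (expansin A9, AA19G00314). Genes of hormones, division and regulation differed by -2.21 (bZIP, AA61G00245), -1.95 (GA2ox2, AA54G00411), -1.24 (PYL4, AA805G00002), -1.07 (B-box, AA114G00006), -1.0 (CDT1A, AA32G00601), -0.93 (LAX2, AA46G00024), -0.89 (BME3, AA216G00002) and 1.90 (AP2/ERF, AA31G00404). Metabolic and seed genes differed by -1.67 (3-O-glucosyltransferase AA11G00065), -1.49 (TT19, AA40G00386), -1.19 (CYP83B1, AA428G00003), 0.91 (ECP63, AA60G00129) and 1.20 (homocysteine S-methyltransferase 3, AA17G00074).

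The other 18 genes lost the call in at least 1 of those fits. GA3ox1 (AA37G00176, -0.94), WOX9 (AA43G00008, -0.76), the LRR kinase AA65G00143 (-1.04) and the LEA gene AA21G00047 (0.88) kept it in 11 fits and respiratory burst oxidase F (AA53G01329, -1.79) in 10. The PMR6 homolog (AA108G00006, -0.93) kept it in 7, beta-xylosidase 1 (AA58G00011, -1.83) and the lipid-transfer protein AA32G00938 (-0.73) in 6, and GA3ox2 (AA31G00895, 1.12) in 5. Expansin A14 (AA25G00163, -1.20) and PDF1 (AA21G00071, -1.17) kept it in 4, EGL3 (AA21G00569, 1.12) and STP1 (AA65G00183, -0.83) in 3, and LAX1 (AA19G00354, -1.16), PAR1 (AA21G00074, -1.07), the acyltransferase AA19G00153 (-0.69) and HSP70 (AA92G00001, -0.68) in 2. GA20ox1 (AA1024G00001, -0.68) kept it in 1.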

How the results depend on the processing

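The number of genes called in CYP light against dark (3909) stayed within 1.5 times of itself under every alternative run, at 3276 to 3978 under other scalings, filters, tests and sample sets and 2921 to 3631 when 1 CYP library was left out. The number of called differences between the accessions (351) was less stable, at 164 to 451 when 1 library was left out, with 26 to 112 positive (64 with all libraries) and 129 to 339 negative (287). Positive differences numbered 124 with DESeq2 and 104 with limma on log2(RPKM + 5), and negative ones 189 with limma on log2(RPKM + 1) and 181 on log2(RPKM + 5). The cause was not tested. Of 1152 counts per family under other settings than a left-out library, 1105 stayed within 1.5 times of the value given. The deviations of same-numbered dark and light libraries correlated at 0.053, 0.062 and 0.182 for replicates 1, 2 and 3. Those of the other dark and light pairs correlated at -0.13 to 0.063. With 3 libraries per group, these values cannot decide whether the numbers pair the samples. The fit with a replicate block called 3720 genes in CYP (1589 higher, 2131 lower) and 270 differences, of which 42 were positive; among the named genes the CYP calls of AA33G00348, AA54G00330 and DAG2 (AA21G00391) were not made in it (adjusted p = 0.055, 0.0524 and 0.0555). Over 122 named genes and 1830 refitted values, the CYP log2 fold change changed sign in 4, all of uncalled genes: RGL2 (AA10G00264) and the peroxiredoxin AA119G00012 without dark replicate 3, and the peptidase AA15G00051 without dark replicate 3 or light replicate 2. With 1 CYP library left out their values ran from -0.08 to 0.02, from -0.72 to 0.01 and from -0.19 to 0.46. With limma on log2(RPKM + 5) the difference between accessions changed sign for expansin A14 (AA25G00163, 0.14), respiratory burst oxidase F (AA53G01329, 0.04) and STP1 (AA65G00183, 0.06), each of low RPKM in CYP light. Depth limits genes near 3 reads in a library, and 3 libraries per group limit every p-value.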
